A study of Saccharomyces cerevisiae with 10 samples.

Results

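The 10 genes of one-carbon folate metabolism and thymidylate synthesis followed here in yeast moved from glucose to ethanol were *SHM1*, *SHM2*, *GCV1*, *GCV2*, *GCV3*, *MIS1*, *ADE3*, *MTD1*, *DFR1* and *CDC21*. They were chosen by name, and all 10 were found among the 5449 genes measured, each with 1 probe set of its own. The mRNA came from a pool of diploid *Saccharomyces cerevisiae* strains of S288c background, built for the barcoded protein-fragment complementation assay (BC-PCA). Every strain carries a pair of proteins fused to complementary fragments of a murine dihydrofolate reductase that resists methotrexate, so its growth in that drug depends on the binding of the pair. Cells grown with dextrose were transferred to minimal medium with ethanol and methotrexate, and total RNA of 5 times (0 h, 0.5 h, 1 h, 4 h and 12 h) was read on Affymetrix GeneChips, 2 arrays at each time. The labels call these arrays biological replicates, while the methods describe a culture of the pool and do not say whether replicates were grown apart, so the p-values measure the spread between arrays, which may be technical.

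Methotrexate is an inhibitor of dihydrofolate reductase, the product of *DFR1*, and so acts on the pathway described here. The sources give the culture before the transfer both as selective and as non-selective. A difference from 0 h can therefore hold the change of carbon source, the transfer itself and the start of methotrexate, which cannot be told apart. Comparisons of 4 h with 1 h and of 12 h with 4 h lie wholly within ethanol and methotrexate. All levels are robust multiarray analysis (RMA) intensities on a linear scale, made relative within each array. They do not show a change in the total amount of mRNA, and in a pool a changed mix of strains and changed mRNA per cell cannot be told apart. Array medians over all probe sets lay between 316 and 351, and across all genes replicate arrays correlated at r = 0.977 to 0.985 on the log2 scale. The 12 h arrays gave both extreme medians and the lowest r. At the other times the medians lay between 321 and 331 and r was at least 0.984. The diploid label was checked with 12 haploid-specific and mating-type genes. Their median percentile among all genes was 8.48 to 19.8 over the arrays, and 1 of them, *STE6*, lay above the median of an array. On the 2 arrays of 0 h *STE6* had percentiles of 52.8 and 50.3, *STE2* 39.5 and 43.4, and *MFA1* 42.7 and 27.45. The rest of the 12 lay lower on both arrays of 0 h. The summed intensity of the 12 genes was 1411 and 1672 at 0 h, 783 and 873 at 0.5 h, 786 and 888 at 1 h, 664 and 714 at 4 h, and 630 and 683 at 12 h, and its part in the results was not tested.

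Tetrahydrofolate carries single-carbon units between metabolites. Serine hydroxymethyltransferase and the glycine decarboxylase complex load it from serine and from glycine, and trifunctional synthases interconvert its methylene, methenyl and formyl forms, with a cytosolic and a mitochondrial set of enzymes in yeast. The units go to purines, to methionine and to thymidylate. Thymidylate synthase leaves dihydrofolate behind, which dihydrofolate reductase returns to tetrahydrofolate.

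The genes called lower at 0.5 h and those called higher at 12 h were mostly not the same. This compares calls and not courses, and the difference between the sets was not tested. At 0.5 h, 6 of the 10 genes had fallen (*SHM1*, *GCV2*, *MIS1*, *ADE3*, *MTD1* and *DFR1*) and *CDC21* alone had risen. By 12 h none of the 10 was below 0 h by the test, and 5 were above it: *SHM2*, *GCV1*, *GCV3*, *MTD1* and *CDC21*. Of the genes lower at 0.5 h, *MTD1* alone was above 0 h at 12 h by the test. *GCV2* also read higher at 12 h than at 0 h (log2 0.78) but did not pass. *GCV1* and *GCV3* read lower at 1 h than at 0 h (log2 −0.73 and −0.43) and did not pass. The test was limma in a single fit over the 10 arrays, with a Benjamini-Hochberg adjusted p under 0.05 over all 5449 genes as the threshold. At 0.5 h, 32.7% of all genes were called lower and 30.1% higher, so the share of members that fell is read against these. At 1 h, 5 members were lower (background 33.4%) and 1 higher (29.3%). At 4 h, 1 was lower (23.2%) and 1 higher (19.4%). At 12 h, 5 were higher (21.4%) and 0 lower by limma (22%, also 0 at an unadjusted p under 0.05). The median log2 fold change of the 10 genes was −0.51, −0.66, 0.03 and 0.71 at 0.5, 1, 4 and 12 h, beside −0.05, −0.06, −0.09 and −0.05 over all genes.

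**Figure D1:**
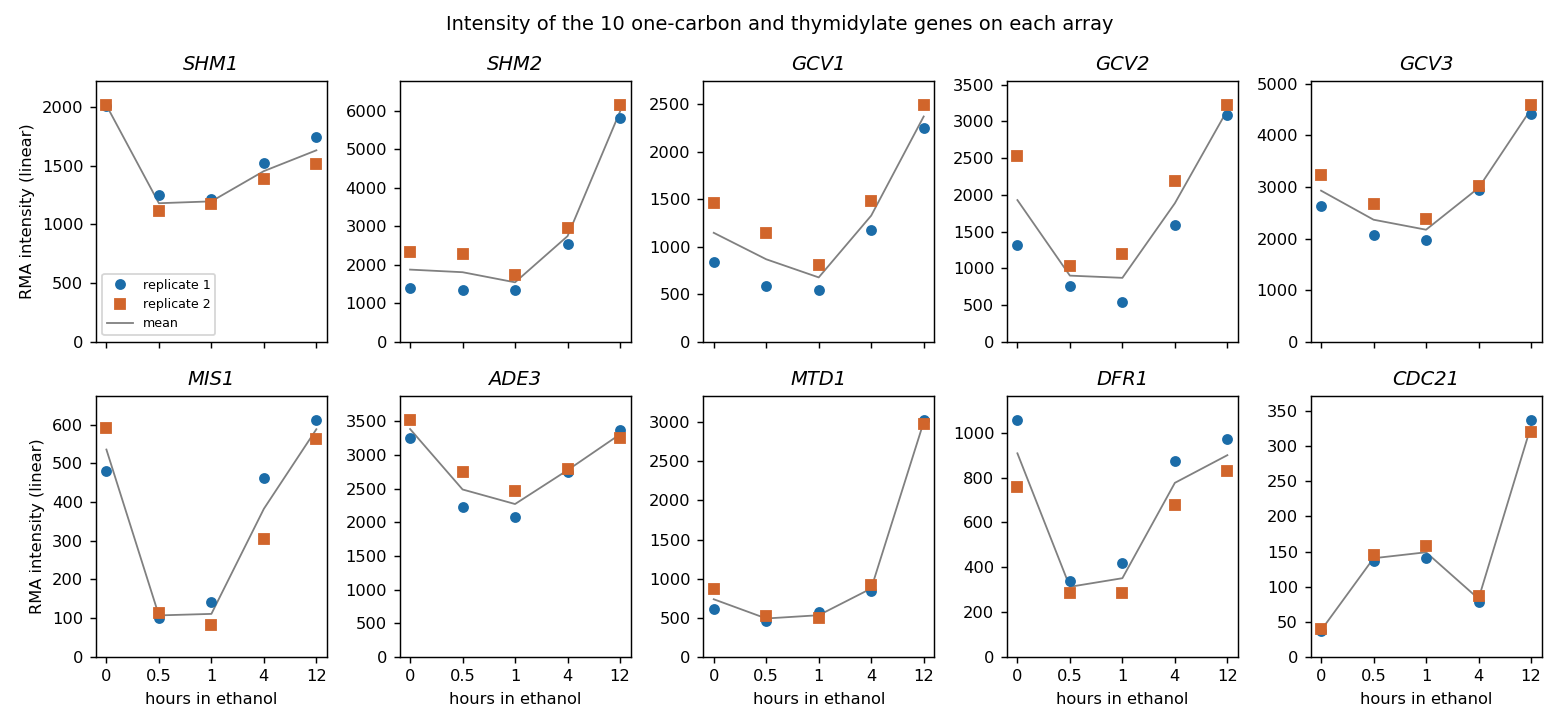
RMA intensity on a linear scale (vertical axes, from 0, a separate scale for each gene) of the 10 genes at each of the 5 times in ethanol (horizontal axis, times evenly spaced and not to scale); circles and squares are replicates 1 and 2 and the line is their mean. By the test 6 of the 10 genes are lower at 0.5 h and 5 at 1 h than at 0 h. *SHM2*, *GCV1*, *GCV2*, *GCV3*, *MTD1* and *CDC21* are highest at 12 h on both arrays. *CDC21* has a first rise to 136 to 157 at 0.5 and 1 h and a second to 320 and 338 at 12 h.

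The hydroxymethyltransferases are a mitochondrial enzyme, encoded by *SHM1* (YBR263W), and a cytosolic one, encoded by *SHM2* (YLR058C). Both move a carbon unit from serine to tetrahydrofolate and yield glycine. *SHM1* had intensities of 2012 and 2022 at 0 h, 1251 and 1112 at 0.5 h, 1219 and 1176 at 1 h, 1524 and 1387 at 4 h and 1749 and 1517 at 12 h. Both arrays at 0.5, 1, 4 and 12 h lay below both arrays of 0 h. The gene was 1.71-fold lower at 0.5 h than at 0 h (log2 fold change −0.77, standard error 0.15, adjusted p = 0.00159) and 1.39-fold lower at 4 h (adjusted p = 0.0322). At 12 h the log2 difference was −0.31 and did not pass (95% interval −0.65 to 0.03). The call at 4 h was lost without either 0 h array or either 4 h array (adjusted p = 0.0695 to 0.182).

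*SHM2* had intensities of 1406 and 2341 at 0 h, 1342 and 2270 at 0.5 h, 1346 and 1740 at 1 h, 2537 and 2949 at 4 h and 5803 and 6156 at 12 h. The first 3 times overlap, the 4 h arrays lie above all of these, and the 12 h arrays are higher again. *SHM2* was 3.29-fold higher at 12 h than at 0 h (log2 fold change 1.72, standard error 0.30, adjusted p = 0.00146) and 2.19-fold higher at 12 h than at 4 h (adjusted p = 0.0394). The rise from 4 h was lost with the arrays centred on their medians (adjusted p = 0.0525) and without either 1 h array, either 4 h array or either 12 h array (adjusted p = 0.0505 to 0.147). At 0.5 h its log2 difference from 0 h was −0.06, with a 95% interval of −0.72 to 0.61. At 12 h the cytosolic gene was thus above its 0 h level by the test and the mitochondrial gene was not. The difference between their changes was not tested.

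The mitochondrial glycine decarboxylase complex splits glycine and passes its methylene carbon to tetrahydrofolate. *GCV1* (YDR019C) encodes its aminomethyltransferase, the T protein, *GCV2* (YMR189W) its decarboxylase, the P protein, and *GCV3* (YAL044C) its lipoyl carrier, the H protein. *GCV1* had intensities of 837 and 1456 at 0 h, 588 and 1148 at 0.5 h, 542 and 812 at 1 h, 1178 and 1478 at 4 h and 2248 and 2495 at 12 h. *GCV2* had 1321 and 2535 at 0 h, 764 and 1036 at 0.5 h, 547 and 1192 at 1 h, 1583 and 2187 at 4 h and 3080 and 3226 at 12 h. *GCV3* had 2633 and 3224 at 0 h, 2063 and 2667 at 0.5 h, 1970 and 2373 at 1 h, 2942 and 3020 at 4 h and 4422 and 4594 at 12 h. All 3 genes had their lowest mean at 1 h and their highest at 12 h, and for each of them both 12 h arrays lay above every other array.

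*GCV1* was 2.14-fold and *GCV3* 1.55-fold higher at 12 h than at 0 h (log2 1.10 and 0.63, adjusted p = 0.0318 and 0.021). For *GCV2* the log2 difference at 12 h was 0.78 with a standard error of 0.39 and did not pass (adjusted p = 0.139). *GCV2* was 2.06-fold lower at 0.5 h and 2.27-fold lower at 1 h than at 0 h (adjusted p = 0.0421 and 0.0252). It was 2.3-fold higher at 4 h than at 1 h (adjusted p = 0.0485). Replicate 2 lay above replicate 1 at all 5 times for *GCV1*, *GCV2* and *GCV3*, and also for *SHM2*. In an alternative fit with the replicate number as a block, *GCV2* passed as higher at 12 h than at 0 h. *GCV1* and *GCV3* then passed as lower at 1 h than at 0 h. Whether the numbers pair the samples is not settled.

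The calls of *GCV1*, *GCV2* and *GCV3* in the fit without a block are close to the threshold. At 12 h those of *GCV1* and *GCV3* were lost without 0 h replicate 1 or either 12 h array, at an adjusted p of up to 0.207 for *GCV1* and 0.126 for *GCV3*. At 0.5 h the call of *GCV2* was lost with the arrays centred on their medians (adjusted p = 0.0529) and without 0 h replicate 2, either 0.5 h array or either 12 h array (adjusted p = 0.0577 to 0.29). Its call at 1 h was lost without 0 h replicate 2 or 1 h replicate 1 (adjusted p = 0.193 to 0.2). That of 4 h against 1 h was lost with centred arrays (0.0563), with 50 added to the intensities (0.0566) and without either 0.5 h array, 1 h replicate 1, either 4 h array or either 12 h array (adjusted p = 0.0593 to 0.277). *LPD1*, named here outside the rule for named genes, encodes the dihydrolipoamide dehydrogenase that serves this complex as its L protein and also serves other dehydrogenases of the mitochondrion. It was 1.64-fold higher at 12 h and 1.59-fold higher at 4 h than at 0 h (adjusted p = 0.00398 and 0.00617).

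The trifunctional synthases are Mis1 in mitochondria and Ade3 in the cytosol. *MIS1* (YBR084W) showed the deepest early fall of the group. It had intensities of 481 and 590 at 0 h, 100 and 114 at 0.5 h, 141 and 80.9 at 1 h, 461 and 304 at 4 h and 613 and 564 at 12 h. The 4 arrays of 0.5 and 1 h lay far below all others, at the 14th to 23rd percentile of all genes, and the arrays of 12 h overlapped those of 0 h. *MIS1* was 4.99-fold lower at 0.5 h than at 0 h (log2 fold change −2.32, standard error 0.28, adjusted p = 9.35e-05), and 3.51-fold higher at 4 h than at 1 h (adjusted p = 0.0028). These calls held without any single array. At 12 h the log2 difference from 0 h was 0.14 (95% interval −0.49 to 0.77).

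*ADE3* (YGR204W), which also provides the formyl-tetrahydrofolate of purine synthesis, had intensities of 3249 and 3523 at 0 h, 2232 and 2742 at 0.5 h, 2079 and 2462 at 1 h, 2750 and 2798 at 4 h and 3368 and 3248 at 12 h. It was 1.37-fold lower at 0.5 h and 1.5-fold lower at 1 h than at 0 h (adjusted p = 0.0357 and 0.0116), and its 12 h and 0 h arrays overlapped. The call at 0.5 h was lost when the arrays were quantile normalized again (adjusted p = 0.0602) and without either 0 h array, 0.5 h replicate 1 or either 4 h array (adjusted p = 0.0552 to 0.227). The call at 1 h was lost without 0 h replicate 2 or 1 h replicate 1 (adjusted p = 0.0629 to 0.086).

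*MTD1* (YKR080W) encodes a cytosolic methylene-tetrahydrofolate dehydrogenase that uses NAD. It had intensities of 610 and 862 at 0 h, 454 and 527 at 0.5 h, 571 and 493 at 1 h, 836 and 912 at 4 h and 3032 and 2974 at 12 h. Both 12 h arrays stand apart from the other 8, of which the highest reads 912. *MTD1* was 4.14-fold higher at 12 h than at 0 h (log2 fold change 2.05, standard error 0.19, adjusted p = 4.61e-05) and 3.44-fold higher than at 4 h (adjusted p = 0.000558), and both calls held without any single array. It was 1.48-fold lower at 0.5 h than at 0 h (adjusted p = 0.0266), a call lost without 0 h replicate 2 or 0.5 h replicate 1 (adjusted p = 0.143 to 0.202). The 1.65-fold rise at 4 h over 1 h (adjusted p = 0.0235) was lost without 1 h replicate 2 or either 4 h array (adjusted p = 0.0902 to 0.148).

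**Figure D2:**
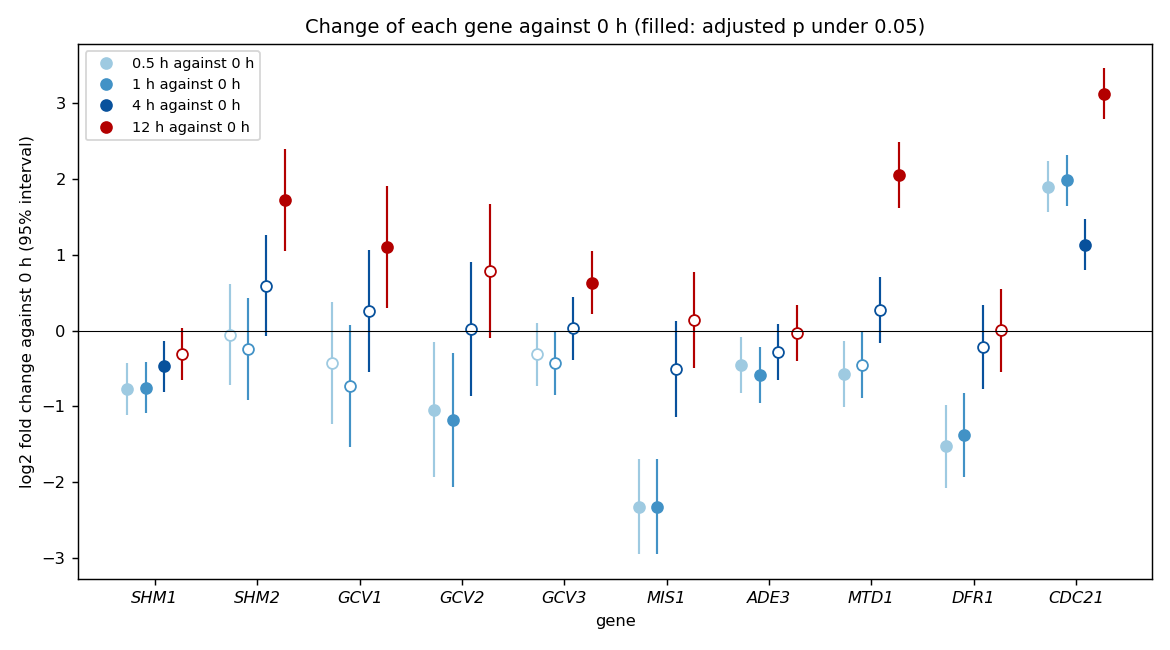
Log2 fold change against 0 h (vertical axis) of each of the 10 genes (horizontal axis) at 0.5, 1, 4 and 12 h; points are limma estimates from 2 arrays at each time, bars are 95% intervals, and filled points have an adjusted p under 0.05. *MIS1* and *DFR1* have the lowest early values, *SHM2*, *MTD1* and *CDC21* the highest at 12 h, and *CDC21* is the one gene above 0 h at every time. The 4 comparisons share the 0 h arrays.

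*DFR1* (YOR236W) and *CDC21* (YOR074C) belong to the thymidylate cycle and went opposite ways at 0.5 h. *DFR1* encodes the cell's own dihydrofolate reductase, the target of methotrexate, and the reassembled murine enzyme of these strains catalyses the same reaction. It had intensities of 1059 and 759 at 0 h, 339 and 286 at 0.5 h, 417 and 285 at 1 h, 876 and 678 at 4 h and 971 and 830 at 12 h. The arrays of 0.5 and 1 h lay below all others, and those of 4 and 12 h overlapped those of 0 h. *DFR1* was 2.88-fold lower at 0.5 h and 2.6-fold lower at 1 h than at 0 h (adjusted p = 0.000483 and 0.000933), and 2.24-fold higher at 4 h than at 1 h (adjusted p = 0.00889). The last call was lost without 1 h replicate 2 or 4 h replicate 1 (adjusted p = 0.0773 to 0.0794). At 12 h the log2 difference from 0 h was 0.00 (95% interval −0.55 to 0.55).

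*CDC21* encodes thymidylate synthase, a gene known to be transcribed at the entry into S phase, and it had the largest rise of the group. It had intensities of 36.2 and 39.2 at 0 h, 136 and 145 at 0.5 h, 141 and 157 at 1 h, 78.8 and 86.6 at 4 h and 338 and 320 at 12 h. The course has a first rise at 0.5 and 1 h, a lower level at 4 h and a second rise at 12 h, and the arrays of 0, 4 and 12 h overlap with those of no other time. *CDC21* was 3.72-fold higher at 0.5 h than at 0 h (log2 fold change 1.90, standard error 0.15, adjusted p = 9.3e-06) and 8.72-fold higher at 12 h (log2 3.12, standard error 0.15, adjusted p = 1.31e-06). It was 1.8-fold lower at 4 h than at 1 h (adjusted p = 0.00409) and 3.98-fold higher at 12 h than at 4 h (adjusted p = 8.55e-05). All 6 comparisons of *CDC21* passed under each alternative run and without any single array. The gene is dim at 0 h, at the 7th to 8th percentile of all genes, so its folds vary with the background correction. With 50 added to every intensity the log2 fold change was 1.12 at 0.5 h and 2.11 at 12 h.

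Of the 60 comparisons made of the 10 genes (4 times against 0 h, 4 h against 1 h and 12 h against 4 h), 28 passed, and 16 of these held without any single array. Between 1 and 4 h, 4 members rose (*GCV2*, *MIS1*, *MTD1* and *DFR1*, background 14.5%) and *CDC21* fell (background 12.8%). Between 4 and 12 h, 3 rose (*SHM2*, *MTD1* and *CDC21*, background 6.83%) and 0 fell by limma (background 4.5%, also 0 at an unadjusted p under 0.05).

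As a description of likeness, the log2 values of each member over the 10 arrays were set against all genes with an SD of at least 0.5. The 3 genes nearest to *SHM2* were *ADE2*, *ADE13* and *ADE17* (Pearson r = 0.980, 0.973 and 0.963), all of purine synthesis. *ADE17* and *ADE13* were also the nearest to *GCV1* (0.980 and 0.964) and to *GCV3* (0.996 and 0.992), and *ADE4*, of the same pathway, was second for *GCV2* (0.959) after *CEM1* (0.967). *MTD1* was nearest to *SNO3*, *RSR1* and *CLN3* (0.986, 0.980 and 0.975). *MIS1* was nearest to *GUA1*, *NUG1* and *NIP7* (0.996, 0.993 and 0.993) and *DFR1* to *ARG1*, *APQ12* and *NIP7* (0.988, 0.987 and 0.986). *CDC21* was nearest to *MMR1*, *POL30* and *PMI40* (0.990, 0.972 and 0.968). *SHM1* was nearest to *MNL1*, *MSG5* and *COG3* (0.993, 0.991 and 0.989), and *ADE3* to *FMP30*, *VRG4* and *GLY1* (0.950, 0.946 and 0.944), and *SHM1*, *ADE3* and *GCV3* themselves had SDs of only 0.31, 0.26 and 0.41, below the 0.5 asked of the other genes. Among the members, *SHM2* correlated with *GCV1*, *GCV3* and *MTD1* at 0.958, 0.955 and 0.944, *MIS1* with *DFR1* at 0.965, and *SHM1* with *SHM2* at 0.264. The arrays hold 5 times of 2, so these values rest on few independent points.

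Genes around the pathway were counted in lists written from general knowledge. Of 6 genes of folate synthesis, 4 were lower and 1 higher at 0.5 h (background 32.7% and 30.1%), and 2 were lower and 0 higher at 12 h (background 22% and 21.4%, also 0 higher at an unadjusted p under 0.05 by limma), where the list's median was −0.28 on the log2 scale. The 2 of 6 at 12 h lie near the background. *FOL1*, whose trifunctional enzyme makes dihydropteroate, had intensities of 290 and 340 at 12 h, against 674 and 769 at 0 h, and was 2.29-fold lower (adjusted p = 0.000925). Among 5 other folate enzymes *MET13*, the methylene-tetrahydrofolate reductase that leads to methionine, was 5.04-fold lower at 0.5 h and 3.54-fold lower at 12 h than at 0 h (adjusted p = 6.92e-06 and 4.48e-05). Its isozyme gene *MET12* had a log2 difference of 0.55 at 12 h (adjusted p = 0.0765). *FMT1*, which formylates the mitochondrial initiator tRNA, had intensities of 27.4 and 13.7 at 0.5 h, against 10.4 and 8.27 at 0 h. It passed the test (adjusted p = 0.00966), but no array reads it above the 5.51th percentile of all genes, so no fold is given. *FAU1*, a methenyl-tetrahydrofolate synthetase, had a log2 difference of −0.21 at 0.5 h (adjusted p = 0.266).

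Of 7 genes that use formyl- or methyl-folate or the methionine made from it, 5 were lower and 0 higher at 0.5 h (background 32.7% and 30.1%, also 0 higher at an unadjusted p under 0.05 by limma), with a median of −1.30, and 2 were higher and 0 lower at 12 h (background 21.4% and 22%, also 0 lower unadjusted), with a median of 0.01. *ADE17*, the formyltransferase of the last steps of purine synthesis, had intensities of 5195 and 5691 at 12 h, against 1253 and 2065 at 0 h, and was 3.38-fold higher (adjusted p = 0.00233). Its isozyme gene *ADE16* had a log2 difference of 0.01 (95% interval −0.35 to 0.37). *SAM1* and *SAM2* are similar genes of S-adenosylmethionine synthetase, and their probe sets may share signal. They were 4.66-fold and 5.79-fold lower at 0.5 h than at 0 h (adjusted p = 0.00119 and 0.000224). The fold of *SAM1* is uncertain, as its 0.5 h arrays read 232 and 670 and its log2 standard error was 0.41. *SAH1*, of S-adenosylhomocysteine hydrolase, was 4.71-fold lower at 0.5 h (adjusted p = 8.05e-05).

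Of 8 genes of serine, glycine and formate, 4 were higher and 3 lower at 12 h than at 0 h (background 21.4% and 22%). *SER3*, an enzyme that opens serine synthesis, was 3.8-fold higher at 12 h, and *AGX1*, which makes glycine from glyoxylate, 3.5-fold higher (adjusted p = 0.0002 and 4.48e-05). *GLY1*, the threonine aldolase that makes glycine from threonine, was 9.87-fold lower at 1 h and 1.87-fold lower at 12 h than at 0 h (adjusted p = 9.23e-06 and 0.0172). *CHA1*, which breaks serine and threonine down, had intensities of 79.2 and 101 at 12 h, against 1166 and 1285 at 0 h, and was 13.7-fold lower (adjusted p = 4.96e-05).

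**Figure D3:**
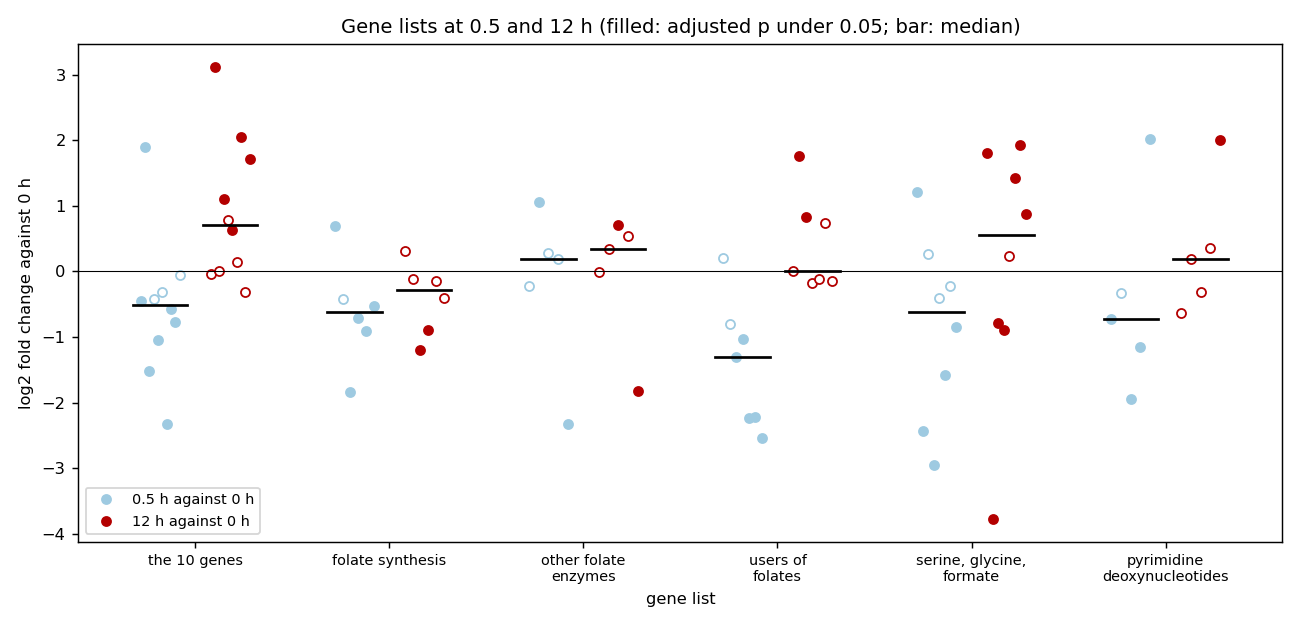
Log2 fold change (vertical axis) at 0.5 and 12 h against 0 h for the 10 genes and for 5 lists of neighbouring metabolism (horizontal axis); each point is a gene, filled where its adjusted p is under 0.05, and bars are list medians. The median of the 10 genes is −0.51 at 0.5 h and 0.71 at 12 h, that of the users of folates −1.30 and 0.01, and *CHA1* gives the lowest point at 12 h.

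Of 5 genes of pyrimidine deoxynucleotide supply, 1 was higher and 3 lower at 0.5 h than at 0 h (background 30.1% and 32.7%), and 1 was higher and 0 lower at 12 h by limma (background 21.4% and 22%, with 1 lower at an unadjusted p under 0.05). *DCD1*, the dCMP deaminase, was 3.85-fold lower and *DUT1*, the dUTPase, 2.22-fold lower at 0.5 h than at 0 h (adjusted p = 0.000162 and 0.0101). At 12 h their log2 differences were −0.32 and 0.36 (adjusted p = 0.353 and 0.39). *YNK1*, a nucleoside diphosphate kinase, was 4.06-fold higher at 0.5 h and 4-fold higher at 12 h (adjusted p = 6.77e-06 and 1.12e-05), while *CDD1*, the cytidine deaminase, had a log2 difference of 0.20 at 12 h (adjusted p = 0.553).

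The G1/S transition, at which *CDC21* is transcribed, was covered by a list of 18 other genes. At 0.5 h 11 of the 18 were higher and 3 lower (background 30.1% and 32.7%). At 4 h 3 were higher and 3 lower, near the background of 19.4% and 23.2%, and at 12 h 14 were higher and 0 lower (background 21.4% and 22%, also 0 lower at an unadjusted p under 0.05 by limma). Their median log2 fold change was 0.76, 0.11 and 1.40 at these times. *RNR1*, a subunit of ribonucleotide reductase, was 14-fold higher at 12 h than at 0 h and 16.4-fold higher than at 4 h (adjusted p = 1.82e-05 and 8.55e-05). The size of these folds is uncertain, as *RNR1* was dim at 0 h (87.9 and 169) and at 4 h (89.6 and 121). The log2 standard error was 0.30. *POL30*, the sliding clamp of DNA polymerase, was 4.85-fold higher at 0.5 h and 8.21-fold higher at 12 h (adjusted p = 1.68e-05 and 6.6e-06). *RFA1*, of the single-strand DNA binding complex, was 6.67-fold higher at 0.5 h and 3.95-fold higher at 12 h than at 0 h (adjusted p = 9.47e-06 and 0.000106). Its rise from 4 to 12 h did not pass (adjusted p = 0.0757). *CLB6*, an S-phase cyclin, had intensities of 135 and 84.4 at 12 h, against 8.97 and 12.9 at 0 h (adjusted p = 5.38e-05), and no fold is given for it because its 0 h arrays are among the dimmest readings. The primase gene *PRI1* had a log2 difference of 0.15 at 12 h (adjusted p = 0.472).

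**Figure D4:**
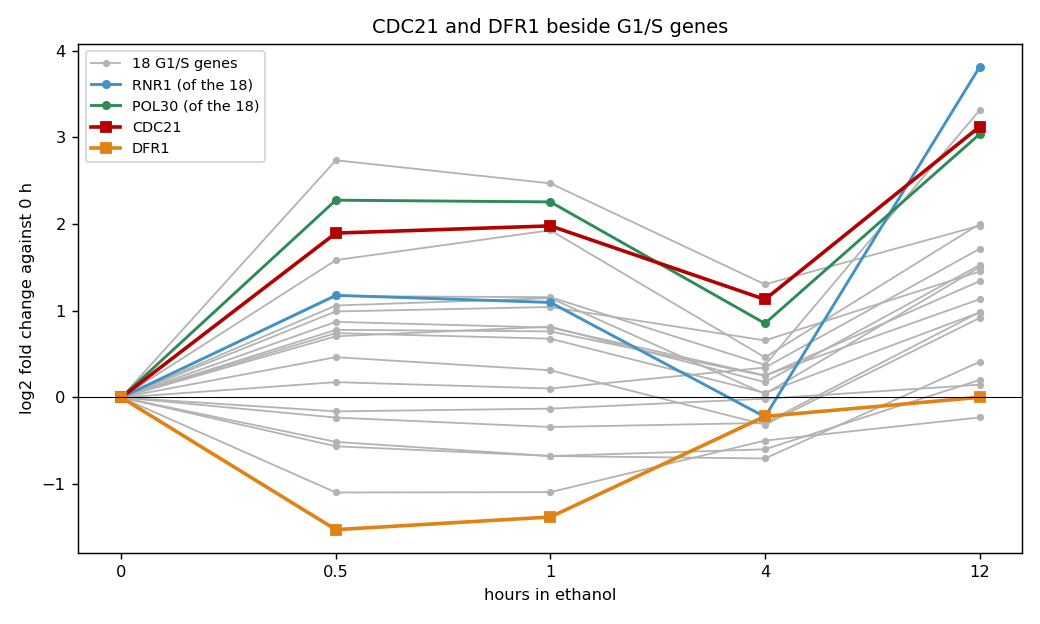
Log2 fold change against 0 h (vertical axis, set to 0 at 0 h) at the 5 times in ethanol (horizontal axis, evenly spaced and not to scale) for *CDC21*, *DFR1* and 18 genes of the G1/S transition, of which *RNR1* and *POL30* are coloured. *CDC21* reads 1.90 at 0.5 h, 1.13 at 4 h and 3.12 at 12 h, while *DFR1* reads −1.53, −0.22 and 0.00.

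The genes of known regulators were also read. Bas1 and its partner Pho2 activate genes of purine synthesis and of one-carbon metabolism, among them *SHM2*, *MTD1* and those of glycine decarboxylase, and Gcn4 acts on many genes of amino acid synthesis. *BAS1* had intensities of 1947 and 2254 at 0 h, 375 and 274 at 0.5 h, 559 and 322 at 1 h, 1230 and 881 at 4 h and 666 and 580 at 12 h. It was below 0 h at every time, by 6.54-fold at 0.5 h and 3.37-fold at 12 h (adjusted p = 4.1e-05 and 0.000991). *PHO2* had intensities of 179 and 214 at 0 h, 327 and 370 at 0.5 h, 284 and 354 at 1 h, 179 and 236 at 4 h and 125 and 207 at 12 h. It was 1.78-fold higher at 0.5 h and 1.62-fold higher at 1 h than at 0 h (adjusted p = 0.0173 and 0.0377), and at 12 h its log2 difference was −0.28 (adjusted p = 0.405). *GCN4* mRNA had a log2 difference of −0.16 at 12 h (95% interval −0.48 to 0.16). Of the factors of G1/S transcription, *SWI4* was 2.93-fold and *SWI6* 2.39-fold higher at 0.5 h than at 0 h (adjusted p = 0.0106 and 0.00246), and *MBP1* had a log2 difference of 0.28 (adjusted p = 0.37). The fold of *SWI4* is uncertain, as the gene was dim at 0 h (55.3 and 83.7) and its log2 standard error was 0.43. At 12 h the differences of *SWI4*, *SWI6* and *MBP1* were 0.29, 0.68 and −0.07, and none of these passed.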

How the data were processed

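The analysis used the authors' deposited table of RMA intensity values on a linear scale, 5716 probe sets on 10 arrays, 2 for each of 5 times. Per the methods, the authors read the arrays with MAS 5.0 and applied the background adjustment, normalization and summarization of RMA from BioConductor, whose versions are not given in the sources used here. Such values lose absolute mRNA amounts. Precision is limited by the number of arrays. The platform table gave the gene names (5498 with 1 symbol, 0 with several and 218 with none), 12 names were replaced by the current ones of assembly R64, and each of 5449 genes was represented by its brightest probe set (highest mean log2). No columns of other samples were present.

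The log2 values were fitted with limma 3.58.1 in R 4.3.3, with the 5 times as groups, no filter and no fold minimum (5 residual and 4.33 prior degrees of freedom). P-values were Benjamini-Hochberg adjusted over all genes within each of 6 comparisons. In simulated arrays with 200 of 5449 genes changed at 4 h, the fit found 67% of 2-fold and 96% of 4-fold changes, with 5.23% of its calls false. The real comparisons called far more genes. The simulated noise was independent between arrays, while deviations of same-numbered real arrays were correlated, so the share of false calls may differ here. Named genes were the 10 members, their 3 nearest genes, and in each list up to 4 members past the threshold with a log2 fold change of at least 1 in size, with up to 2 that did not pass. *LPD1* and *PHO2* were named outside this rule, and *LPD1* was added after its values were seen. The members and the lists were chosen with earlier results of these data known. The sources used here gave no sequences of the members, and none are shown. Alternatives were array centring, a second quantile normalization, an offset of 50, a minimum mean intensity of 100, all probe sets, a prior with trend, a replicate block and the removal of each array. They were read for the 10 members and for counts over all genes, and not for single genes of the lists. Figures were drawn with matplotlib 3.10.9 in Python 3.11.15.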

Additional observations from a re-analysis of the deposited data

How the results depend on the processing

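Of 420 values of single genes under the 7 settings that keep all arrays, 396 kept their direction and side of the threshold, 15 came to pass it, 5 no longer passed and 4 changed sign. None of the values that changed sign had passed: *DFR1* at 12 h against 0 h was −0.028 with centred arrays and −0.058 with a second quantile normalization, under which *GCV2* and *GCV3* at 4 h were −0.050 and −0.018. The deviations of same-numbered arrays correlated at 0.0267 to 0.565 over 10 pairs of times, above 0.1 in 8 and above 0 in 10. No source says that a number marks a culture, so whether the numbers pair the samples is not settled. With the replicate block, 8 members were lower at 1 h than at 0 h and 2 higher at 4 h, while 7 were higher at 4 h than at 1 h and 5 higher at 12 h than at 4 h. The block accounts for 10 of the 15 values that came to pass, all of *SHM2*, *GCV1*, *GCV2*, *GCV3* or *MTD1*, among them *GCV1* and *GCV3* lower at 1 h and *GCV2* higher at 12 h than at 0 h, and no call was lost under it. Over all genes it called 1066 at 12 h against 4 h, and the fit without it 617.

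Without single arrays, members lower than at 0 h numbered 3 to 6 at 0.5 h (3 without 0 h replicate 2 or 0.5 h replicate 1), 3 to 7 at 1 h (3 without 0 h replicate 2 or 1 h replicate 1) and 0 to 1 at 4 h (0 without any one of the 0 and 4 h arrays). Members higher numbered 3 to 5 at 12 h (3 without 0 h replicate 1 or either 12 h array) and, at 4 h against 1 h, 1 to 5 (1 without 4 h replicate 1, 2 without 4 h replicate 2 or 1 h replicate 2). Where an arm then holds 1 array, it is assumed to vary like the other times. Values that did not pass changed sign: *SHM2* ranged from −0.44 to 0.32 at 0.5 h and −0.61 to 0.12 at 1 h, and *GCV1* from −0.91 to 0.056 at 0.5 h and −0.14 to 0.66 at 4 h. At 4 h *GCV2* ranged from −0.45 to 0.49, *GCV3* from −0.11 to 0.18 and *DFR1* from −0.46 to 0.022. At 12 h *MIS1* ranged from −0.0065 to 0.29, *ADE3* from −0.091 to 0.026 and *DFR1* from −0.24 to 0.24, all log2 against 0 h. Calls over all genes at 4 h against 1 h were 1485, and 519 without 1 h replicate 2 or 479 without 4 h replicate 1. At 4 h against 0 h they were 2321, and 1383 without 4 h replicate 2. At 12 h against 4 h they were 617, and 400 and 258 without 4 h replicates 1 and 2, or 302 without 12 h replicate 1. The cause of these shifts was not tested.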
